A study of Mus musculus with 10 samples.

Results

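The genes described here are 10 heat shock protein genes of the cytosol and the mitochondrion, taken by gene symbol from the 24052 symbols counted in mouse liver: *Hspa1a*, *Hspa1b*, *Hspa8*, *Hsph1*, *Dnajb1*, *Hsp90aa1*, *Hsp90ab1*, *Hspb1*, *Hspd1* and *Hspe1*. The study sequenced RNA of 10 livers, 5 wild-type and 5 Ndrg3 LKO, each as 1 library, from mice labelled C57BL/6 with free access to food, and the floxed line had been backcrossed to C57BL/6N. Ndrg3 LKO mice carry an *Ndrg3* allele whose exon 4 is flanked by loxP sites and lose that exon through Cre recombinase driven by the albumin promoter, which is active in hepatocytes, and the controls were wild-type littermates. The labels give no age, sex or litter for the single livers. Males were used by default in the study, and the mice whose livers served for both metabolites and RNA were 8 to 10 weeks old in one description and 10 to 12 weeks old in another. Whether the deletion had reached every hepatocyte was not measured here. The study describes no heat or other stress applied to these mice, so the comparison is between livers of fed mice. Whether the livers were free of stress was not measured here, and the paper reports signs of liver injury in Ndrg3 LKO mice.

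Heat shock proteins are chaperones: they hold unfolded proteins, help them to fold, and hand those that cannot be folded to degradation. The HSP70 cycle needs a J-domain protein such as DNAJB1 to deliver the client and an exchange factor such as HSPH1 to release it, HSP90 finishes the folding of kinases and steroid receptors, HSPB1 holds aggregating proteins without ATP, and HSPD1 with its lid HSPE1 forms the folding chamber of the mitochondrial matrix. Some of these genes, such as *Hspa8* and *Hsp90ab1*, are expressed at all times, while *Hspa1a*, *Hspa1b*, *Hsph1*, *Dnajb1* and *Hsp90aa1* are known for their induction by the transcription factor HSF1, which binds inverted repeats of a short unit, the heat shock element, near their start sites.

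Promoter stretches with this element are shown because it is the shared regulatory feature of the inducible genes. RefSeq promoters of the GRCm38.p6 build, each 250 bases before to 50 bases after a start site, were at hand for 7 of the 10 genes (10 entries); *Hspa8*, *Hsp90aa1* and *Hsp90ab1* were not among them. The capitals mark matches to GAANNTTC or TTCNNGAA, searched on both strands, where N is any base and each form is its own reverse complement.
*Hspa1a* and *Hspa1b*: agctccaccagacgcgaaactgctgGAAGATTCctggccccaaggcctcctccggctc
*Hsph1*: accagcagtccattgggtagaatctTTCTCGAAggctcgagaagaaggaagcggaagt
*Hspb1*: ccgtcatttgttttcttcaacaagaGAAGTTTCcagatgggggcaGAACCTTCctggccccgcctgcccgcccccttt
*Hspe1*: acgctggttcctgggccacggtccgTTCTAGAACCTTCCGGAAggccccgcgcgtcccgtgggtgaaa

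In GRCm38.p6, the first stretch is chr17:34972228-34972285 on the minus strand for *Hspa1a* and chr17:34959310-34959367 on the minus strand for *Hspa1b*, and its match lies at -104 to -97 from either start, where -1 is the base before the start. The *Hsph1* stretch is chr5:149636337-149636394 on the minus strand, with its match at -33 to -26 from the start of one entry and at -54 to -47 from that of the other. The *Hspb1* stretch is chr5:135887777-135887854 on the plus strand and holds matches at -117 to -110 and at -97 to -90. The *Hspe1* stretch, chr1:55088034-55088101 on the plus strand, lies between the start of *Hspe1* and that of one *Hspd1* entry, and the same bases read on the minus strand are at -169 to -102 of that *Hspd1* promoter. There the matches overlap end to end, and *Hspe1*, *Hspd1* and *Hsph1* were the 3 genes with a form of 3 units, in which one 8-letter match overlaps the next by 3 letters. The form in *Hsph1* lies after its start site and is not printed. Either 8-letter form was found in 7 of the 10 entries, from 6 of the 7 genes, against 15.1% of the 32851 promoters of the table (7.86% for GAANNTTC and 8.52% for TTCNNGAA), and the form of 3 units in 0.603% of them. *Dnajb1* had no match in its 2 windows, which says only that these letters are absent there. Of the other motifs searched, CCAAT was found in promoters of 5 of the 7 genes (37.4% of all promoters), CACGTG in those of 2 (*Hspd1* and *Hsph1*, 7.15% of all) and TATAAA in none of them (13.6% of all). The 250 bases before the starts of *Hspa1a* and *Hspa1b* are identical at 98.8% of positions. They differ at 3 positions, which are C207T, T204C and T2G, with the base of *Hspa1a* first and positions counted backwards from 1 at the base before the start.

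All values below are TMM-normalized CPM, that is, reads of a gene as a share of its library (CPM) after scaling by edgeR's trimmed mean of M values, or log2 fold changes of Ndrg3 LKO over wild-type livers with their standard errors (SE). Between 20872262 and 24747870 reads were counted on genes in a wild-type liver and between 23474693 and 30450057 in an Ndrg3 LKO liver, so that 3 counts, taken as the lowest signal a library can show, are 0.0985 to 0.144 CPM. *Ndrg3* itself (mm9 chromosome 2, minus strand, 156753081 to 156817792) was counted over the whole gene and not over exon 4 alone. It stood at 18.5 ± 2.22 in wild-type and 8.07 ± 0.761 in Ndrg3 LKO livers (SD, n = 5 each), with no overlap between the groups and a log2 fold change of -1.20 ± 0.13 (SE, adjusted p = 3.87e-05). The liver labelled Ndrg3 LKO replicate 5 stood apart: on the first principal component of all tested genes, which holds 68.7% of the variance, it lay at 14.1, against 51.1 to 56.6 for the other 4 Ndrg3 LKO livers and -49.9 to -43.1 for wild-type livers. Its *Ndrg3* level, 8.26, was as low as theirs. The results on the 10 genes are therefore also given without it, and the gene lists by their counts. The paper's legends for its RNA and metabolite heatmaps count 5 wild-type and 4 Ndrg3 LKO livers. Which Ndrg3 LKO liver was left out there is not stated.

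Counts of marker genes are to be read against 25.6% of all genes called higher and 23% called lower. Without Ndrg3 LKO liver 5 these shares were 28.4% and 27.2%. Hepatocyte markers had the highest summed level of the marker lists in every library, and 7 of 10 of them were lower in Ndrg3 LKO livers, or 9 without liver 5. Their summed level was 141677 to 183905 in wild-type livers, 39134 to 45732 in Ndrg3 LKO livers 1 to 4 and 157706 in Ndrg3 LKO liver 5. Markers of other cell types were higher in Ndrg3 LKO livers for 8 of 8 Kupffer cell and macrophage genes (summed level 81.3 to 206.8 against 184.1 to 573.9), 6 of 7 endothelial genes (60.2 to 83.5 against 124.1 to 165.1) and 5 of 8 stellate cell and fibroblast genes (112.4 to 178.2 against 241.1 to 313.3). Of 5 cholangiocyte genes tested, 1 was higher and 1 lower (38.6 to 71.9 against 51.1 to 220.0), and of 9 neutrophil and lymphocyte genes listed, 8 were matched by symbol and none of these reached the level needed for the test (1.43 to 2.62 against 2.26 to 17.8, with Ndrg3 LKO liver 5 the highest). Without liver 5, 8 Kupffer cell, 5 endothelial, 5 stellate cell and 2 cholangiocyte genes were higher and 1 cholangiocyte gene lower. The largest single changes in these lists were those of *Apoa1* (log2 fold change -2.34, adjusted p = 0.0110), *Marco* (4.30, 9.07e-05), *Lyve1* (1.99, 0.000772), *Col3a1* (1.79, 0.000813) and *Spp1* (1.27, 0.0181, or 0.0501 without Ndrg3 LKO liver 1). The part of these shifts in cell markers in the results below was not tested. In bulk liver, fewer cells of a type and less RNA per cell cannot be told apart.

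Genes can be set against each other only per length, here per kilobase of the merged exons of a gene, and on this scale the 10 levels spanned a wide range and their means fell in 1 order in both groups. In wild-type livers the mean was 428.5 ± 55.7 TMM-normalized CPM per kb for *Hspa8*, 340.4 ± 39.6 for *Hsp90ab1* and 282.9 ± 61.2 for *Hspd1* (SD, n = 5). The ranges of neighbouring genes among these 3 overlapped in both groups. *Hspe1* followed at 144.3 ± 31.5 and *Hsp90aa1* at 53.7 ± 15.6, each apart from the next gene down. Below these came *Hspb1* (23.6 ± 7.99), *Dnajb1* (13.3 ± 1.55) and *Hsph1* (9.86 ± 1.87), whose neighbouring ranges overlapped, then *Hspa1b* at 4.01 ± 0.765 and *Hspa1a* at 0.565 ± 0.232. In Ndrg3 LKO livers the same order ran from 443.1 ± 66.0 for *Hspa8* to 0.232 ± 0.224 for *Hspa1a*, and there the ranges of *Hspd1* and *Hspe1*, and of *Hsph1* and *Hspa1b*, overlapped too. The order between close neighbours rests on the length used. Per kilobase of 1 annotated transcript, a choice made after the data were seen, *Hsph1* lay above *Dnajb1* in wild-type livers (18.3 ± 3.46 and 14.5 ± 1.69) and below it in Ndrg3 LKO livers (8.34 ± 5.13 and 9.44 ± 4.09), and *Hspe1* lay below *Hspd1* in wild-type livers (274.8 ± 59.9 and 308.5 ± 66.8) and above it in Ndrg3 LKO livers (402.2 ± 112.4 and 311.8 ± 23.4, SD, n = 5 each), with overlapping ranges in each case. Without the division by length, the 10 genes summed to 4112 ± 573 TMM-normalized CPM in wild-type and 4258 ± 538 in Ndrg3 LKO livers, and *Hspa8* alone made up 43.4% and 43.2% of these sums. As a plain share of all counted reads, before TMM, they took 0.295% to 0.409% in wild-type livers and 0.463% to 0.542% in Ndrg3 LKO livers, so whether the pool differed depends on the scaling. The inducible HSP70 genes held the last places in it in either group. The share of 100-base transcript windows that occur elsewhere in the genome differed between genes. It was 0% for *Hsph1*, *Dnajb1* and *Hsp90ab1*, 48.7% for *Hspb1*, 49.3% for *Hspa1a*, 49.9% for *Hspa1b* and 63.8% for *Hspa8*. Reads from such windows may be dropped, so levels per kb may be lowered unequally.

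**Figure D1:**
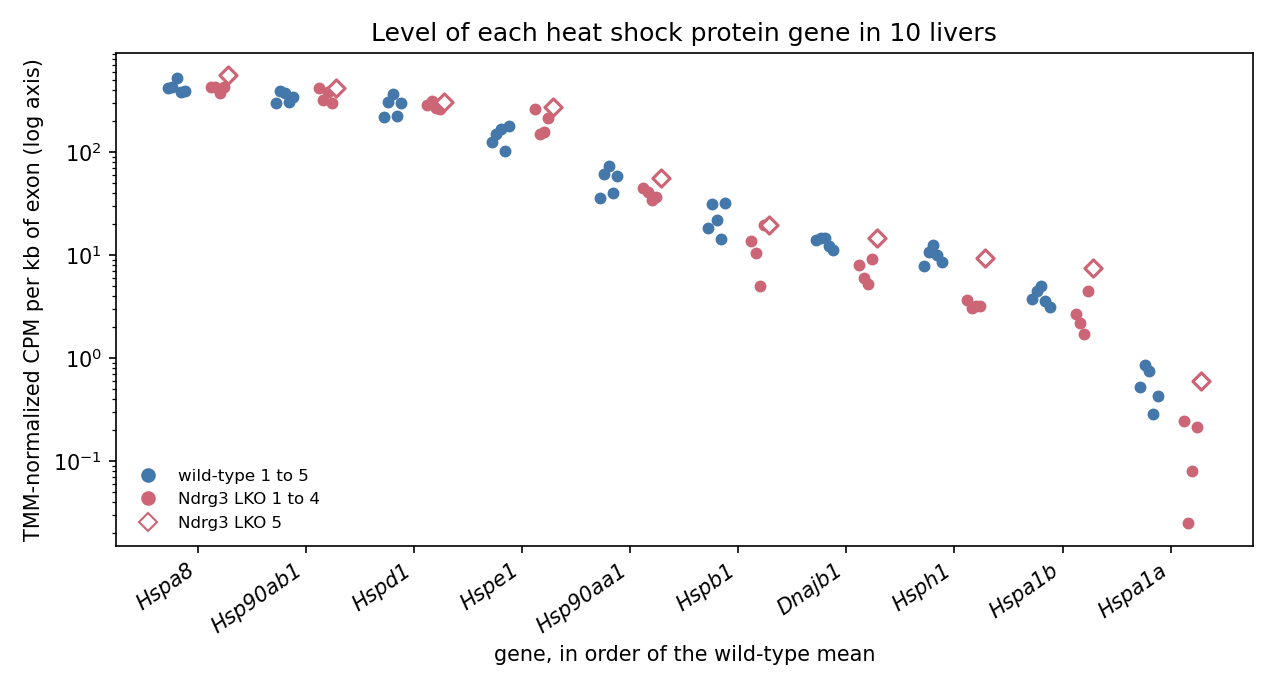
TMM-normalized CPM per kilobase of exon (log axis) of the 10 genes in each of the 10 livers, with genes ordered by their wild-type mean and Ndrg3 LKO liver 5 drawn as an open diamond. *Hspa8* lies highest (mean 428.5 in wild-type livers) and *Hspa1a* lowest (0.565), and on this length the means fall in the same order in both groups.

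All 10 genes passed the filter for the test, at least 1 CPM in at least 5 livers. *Hspa1a* did so through 4 wild-type livers and 1 Ndrg3 LKO liver, so its inclusion rested on the group where it was high. With edgeR's quasi-likelihood test and Benjamini-Hochberg adjustment over all 11208 genes tested, *Hsph1* and *Dnajb1* were lower in Ndrg3 LKO livers at an adjusted p under 0.05, which makes 2 of 10 genes lower against 23% of all genes, and 0 of 10 were higher against 25.6% of all genes. At an unadjusted p under 0.05, 4 genes were lower, *Hspa1a* among them, and 1 was higher, against 26.5% and 29.2% of all genes. DESeq2 called 3 lower and 1 higher, against 24.9% and 26.9% of all genes. The calls of limma on log2(CPM + 1) were 3 lower, again with *Hspa1a*, and 0 higher, against 24.1% and 25.1%. Both counts with *Hspa1a* thus hold a gene whose inclusion rested on the group where it was high. With edgeR the share called lower lay near that of all genes, and the median log2 fold change was -0.23 over the 10 genes and 0.03 over all genes.

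Without Ndrg3 LKO liver 5, *Hsph1*, *Dnajb1* and *Hspb1* were lower, and so was *Hspa1a*. The latter then passed the filter through 4 wild-type livers alone, so its inclusion rested on the group where it was high. That makes 4 of 10, of which 3 do not rest on such an inclusion, against 27.2% of 11446 genes, and none was higher against 28.4%. The median of the 10 genes was then -0.51. At an unadjusted p under 0.05, 5 were lower, *Hspa1a* among them, and 0 higher, against 29.5% and 31.3% of all genes, and DESeq2 and limma were not run on these 9 livers. In no gene of the 10 were the groups of 5 free of overlap, against 31.5% of all genes tested. Ndrg3 LKO liver 5 was the highest of its group in 7 of the 10 genes and in 31.8% of all genes tested, and wild-type liver 3 was the highest of its group in 6 of the 10 and in 21.9% of all. In the 7 genes where liver 5 was highest, leaving it out could only lower the Ndrg3 LKO mean. A larger fall or a smaller p without it adds no support there.

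**Figure D2:**
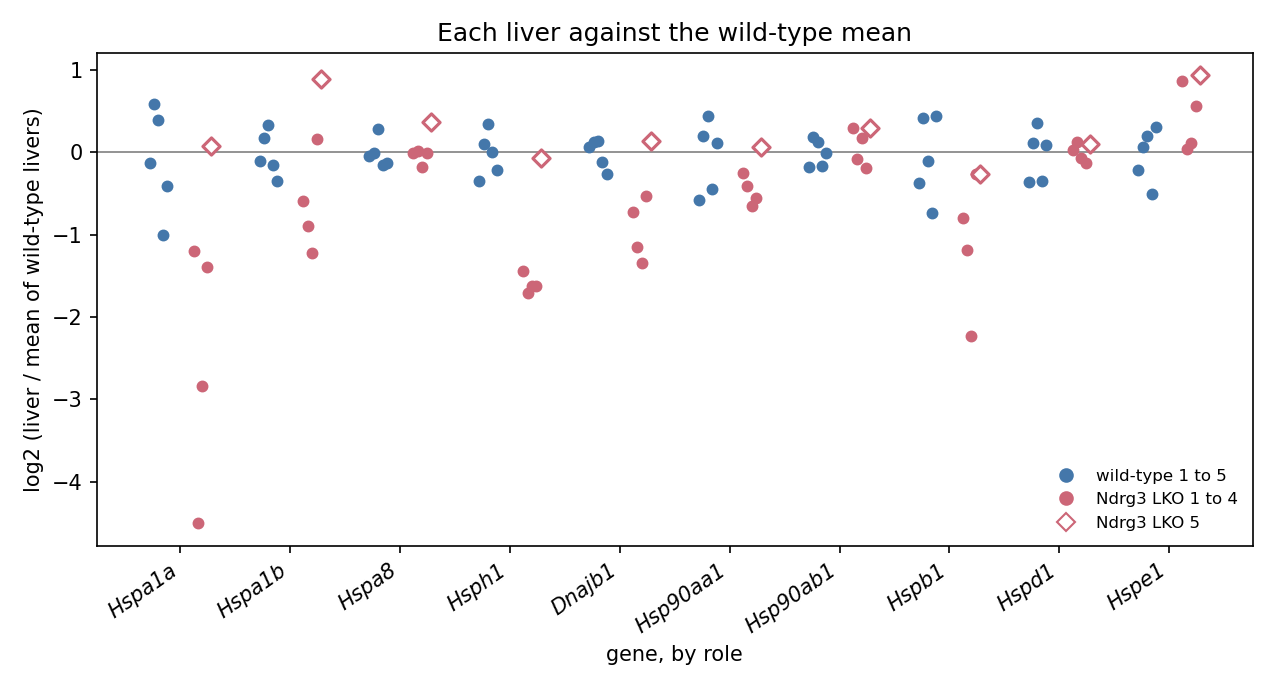
Level of each gene in each liver as log2 of its ratio to the mean of the 5 wild-type livers, with genes grouped by role and Ndrg3 LKO liver 5 as an open diamond. For *Hsph1*, *Dnajb1* and *Hspa1a*, Ndrg3 LKO livers 1 to 4 lie below every wild-type liver while liver 5 lies within or above the wild-type range, and for *Hspe1* 3 Ndrg3 LKO livers lie above every wild-type liver.

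*Hsph1* encodes HSP105, an HSP110 protein that exchanges the nucleotide of HSP70 and so lets it release its client. The gene maps to mm9 chromosome 5 (minus strand, 150416862 to 150438951), with 19 exons in its fullest transcript. It stood at 54.6, 74.6, 88.2, 69.8 and 59.8 in wild-type livers 1 to 5 and at 25.7, 21.3, 22.5, 22.6 and 66.5 in Ndrg3 LKO livers 1 to 5. Ndrg3 LKO livers 1 to 4 were alike and below every wild-type liver, while liver 5, the one whose hepatocyte markers summed to the wild-type range, lay in the middle of the wild-type values. The means were 69.4 ± 13.2 and 31.7 ± 19.5 (SD, n = 5 each), and the log2 fold change was -1.13 ± 0.31 (SE, adjusted p = 0.0100). An exact permutation test of the group means of log2(TMM-normalized CPM + 1) gave p = 0.0238 (2-sided, n = 5 against 5). The 4 other Ndrg3 LKO livers had a mean of 23.0 ± 1.86 (SD), and a fit without liver 5 gave a log2 fold change of -1.60 ± 0.15 (SE, adjusted p = 6.06e-06). As liver 5 was the highest of its group, leaving it out could only widen the fall, so this fit adds no support. *Hsph1* was lower with an adjusted p under 0.05 in all 22 alternatives, which gave log2 fold changes from -1.60 to -0.71 and adjusted p from 6.06e-06 to 0.0277. No window of 100 bases of its transcript occurs elsewhere in mm9.

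*Dnajb1*, the classical inducible HSP40 that stimulates the ATPase of HSP70, has 3 exons at mm9 chromosome 8 (plus strand, 86132074 to 86135801). It stood at 34.3, 35.95, 36.3, 30.4 and 27.5 in wild-type livers 1 to 5 and at 19.9, 14.8, 12.9, 22.8 and 36.4 in Ndrg3 LKO livers 1 to 5. Here too Ndrg3 LKO livers 1 to 4 were below every wild-type liver, and liver 5 was marginally above all of them. The means were 32.9 ± 3.83 and 21.4 ± 9.26 (SD, n = 5 each), and the log2 fold change was -0.63 ± 0.24 (SE), with an adjusted p of 0.0499 at the edge of the threshold and p = 0.0476 in the exact permutation test. Without liver 5 it was -0.91 ± 0.18 (adjusted p = 0.000989). Liver 5 was again the highest of its group, so leaving it out could only widen the fall, which adds no support. *Dnajb1* passed in only 9 of 22 alternatives, in which the log2 fold change ran from -0.91 to -0.17 and the adjusted p from 0.000989 to 0.452, and leaving out any one of the other 9 livers ended the call (adjusted p from 0.0502 to 0.1002).

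*Hspa1a* and *Hspa1b* encode almost the same inducible HSP70 protein. They lie 9960 bases apart at mm9 chromosome 17 (minus strand), *Hspa1b* from 35093381 to 35096183 and *Hspa1a* from 35106144 to 35109069, the latter as a single exon that overlaps *Gm20481* on the other strand. Of the 100-base windows of their transcripts, 49.3% (*Hspa1a*) and 49.9% (*Hspa1b*) occur elsewhere in the genome, so reads from these stretches can be split between the copies or dropped, and the setting used for such reads and for strand is not given in the sources used here. *Hspa1a* had 27, 51, 39, 18 and 21 reads in wild-type livers 1 to 5 and 25, 3, 9, 22 and 37 in Ndrg3 LKO livers 1 to 5. These are 1.52, 2.49, 2.18, 0.828 and 1.25 TMM-normalized CPM in wild-type livers and 0.720, 0.0728, 0.232, 0.628 and 1.75 in Ndrg3 LKO livers. Ndrg3 LKO livers 1 to 4 were below every wild-type liver, by a small margin for livers 1 and 4, and liver 2 was at the floor of 3 counts. The log2 fold change was -1.37 ± 0.60 (SE, adjusted p = 0.0790, exact permutation p = 0.0556, n = 5 against 5), and -2.03 ± 0.53 (adjusted p = 0.00693) without liver 5, a fit it entered through wild-type livers alone. Liver 5, left out there, was the highest of its group, so that fit adds no support. Over 20 alternatives the adjusted p ran from 0.00693 to 0.168 and was under 0.05 in 5 of them.

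*Hspa1b* stood at 10.5, 12.7, 14.2, 10.1 and 8.82 in wild-type livers 1 to 5 and at 7.46, 6.07, 4.82, 12.6 and 20.8 in Ndrg3 LKO livers 1 to 5. Ndrg3 LKO livers 1 to 3 were below every wild-type liver, liver 4 was within their range and liver 5 above it. The coefficient of variation was 63.3% in Ndrg3 LKO and 19.1% in wild-type livers, and the log2 fold change was -0.13 ± 0.35 (SE, adjusted p = 0.782). Without liver 5 it was -0.55 ± 0.26 (adjusted p = 0.0899), and leaving out Ndrg3 LKO liver 2 or 3 instead turned it to 0.014 or 0.056. Both genes were also summed into 1, in which any reads split between them count once and any dropped reads stay missing. The sum was 12.9 ± 2.73 in wild-type and 11.04 ± 7.17 in Ndrg3 LKO livers (SD, n = 5 each). Its log2 fold change was -0.23 ± 0.36 (SE, adjusted p = 0.614) with all livers and -0.67 ± 0.27 (adjusted p = 0.0483) without liver 5. Liver 5 had the highest sum of its group, so leaving it out could only widen the fall, which adds no support.

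*Hspa8* encodes HSC70, the constitutive HSP70 that folds new proteins and uncoats clathrin vesicles. It maps to mm9 chromosome 9 (plus strand, 40609067 to 40613283), with small nucleolar RNA genes within it on the same strand. It stood at 1729, 1776, 2174, 1597 and 1628 in wild-type livers 1 to 5 and at 1766, 1796, 1573, 1767 and 2306 in Ndrg3 LKO livers 1 to 5. Apart from the highest liver of each group, wild-type liver 3 and Ndrg3 LKO liver 5, the values of both groups were interleaved. The log2 fold change was 0.05 (95% interval -0.31 to 0.41, adjusted p = 0.825), and -0.06 (adjusted p = 0.749) without liver 5. Of its transcript windows, 63.8% are repeated elsewhere in mm9, the highest share of the 10 genes.

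*Hsp90aa1* and *Hsp90ab1* encode the inducible and the constitutive cytosolic HSP90. Both have 11 exons and lie on minus strands of mm9, *Hsp90aa1* at chromosome 12 (111928815 to 111940938) and *Hsp90ab1* at chromosome 17 (45704724 to 45710220). *Hsp90aa1* stood at 141.5, 241.7, 288.1, 155.9 and 228.8 in wild-type livers 1 to 5 and at 177.4, 159.6, 134.9, 144.2 and 220.3 in Ndrg3 LKO livers 1 to 5. Ndrg3 LKO livers were within the wild-type range except liver 3, just below it, and wild-type livers were spread widely. The log2 fold change was -0.34 ± 0.21 (SE, adjusted p = 0.209), and -0.47 ± 0.21 (adjusted p = 0.0724) without liver 5. *Hsp90ab1* stood at 902, 1166, 1112, 908 and 1015 in wild-type livers and at 1257, 962, 1149, 897 and 1253 in Ndrg3 LKO livers. Livers 1 and 5 of the Ndrg3 LKO group were above every wild-type liver and liver 4 just below all of them. The log2 fold change was 0.11 (95% interval -0.24 to 0.46, adjusted p = 0.583), and 0.05 (adjusted p = 0.796) without liver 5. Of the windows of *Hsp90aa1*, 60.4% are repeated elsewhere and of those of *Hsp90ab1* 0%.

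*Hspb1* encodes HSP27 (HSP25 in the mouse), the small heat shock protein that also binds actin. It maps to mm9 chromosome 5 (plus strand, 136363789 to 136365433). It stood at 18.9, 32.5, 22.6, 14.6 and 33.1 in wild-type livers 1 to 5 and at 14.1, 10.8, 5.18, 20.3 and 20.3 in Ndrg3 LKO livers 1 to 5. Ndrg3 LKO livers 1 to 3 were below every wild-type liver, and livers 4 and 5 lay within their range. The means were 24.4 ± 8.24 and 14.1 ± 6.46 (SD, n = 5 each), and the log2 fold change was -0.79 ± 0.34 (SE, adjusted p = 0.0757). It was -0.97 ± 0.35 (adjusted p = 0.0344) without liver 5 and -0.94 (adjusted p = 0.0454) without wild-type liver 4, and it passed in 3 of 22 alternatives in all.

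*Hspd1* and *Hspe1* encode HSP60 and HSP10, the chamber and the lid of the mitochondrial chaperonin. At mm9 chromosome 1, *Hspd1* runs from 55134679 to 55145087 on the minus strand and *Hspe1* from 55144976 to 55148151 on the plus strand, and the genes share 112 bases on opposite strands. *Hspd1* stood at 581, 812, 961, 589 and 795 in wild-type livers 1 to 5 and at 761, 819, 714, 684 and 800 in Ndrg3 LKO livers 1 to 5. Every Ndrg3 LKO liver was within the wild-type range, and the log2 fold change was 0.02 (95% interval -0.36 to 0.39, adjusted p = 0.947), and -0.018 (adjusted p = 0.938) without liver 5. *Hspe1* stood at 182.8, 223.1, 244.3, 149.6 and 263.9 in wild-type livers and at 387.0, 218.3, 229.5, 314.6 and 407.1 in Ndrg3 LKO livers. Livers 1, 4 and 5 of the Ndrg3 LKO group were above every wild-type liver and livers 2 and 3 within their range. The means were 212.7 ± 46.4 and 311.3 ± 87.0 (SD, n = 5 each), and the log2 fold change was 0.55 ± 0.22 (SE, adjusted p = 0.0556), or 0.42 ± 0.21 (adjusted p = 0.107) without liver 5. *Hspe1* passed in 7 of 22 alternatives, with adjusted p from 0.000379 to 0.1296, and among these were the fits without Ndrg3 LKO liver 2 (0.65, adjusted p = 0.0267) and without liver 3 (0.64, adjusted p = 0.0366). The annotation names 4 pseudogenes after *Hspe1*, and 20.4% of its windows are repeated elsewhere, against 34.2% for *Hspd1*.

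**Figure D3:**
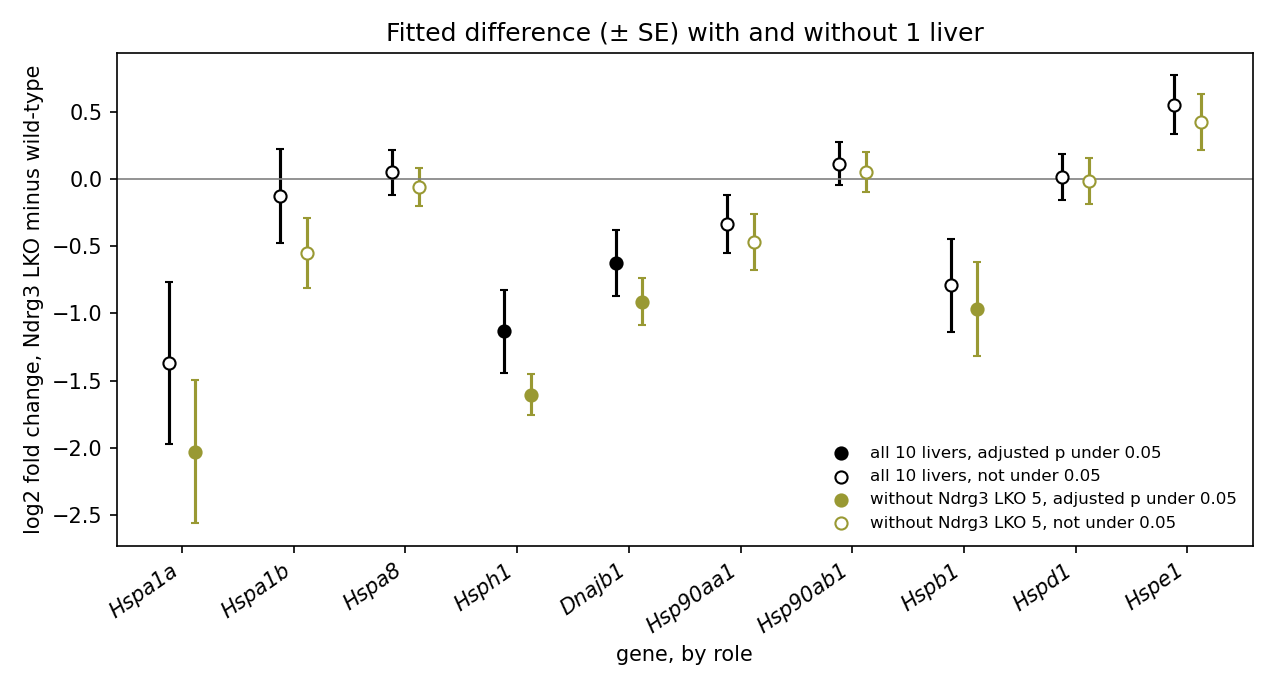
Log2 fold change of Ndrg3 LKO over wild-type livers with its standard error for each gene, from all 10 livers (black) and from the 9 livers without Ndrg3 LKO liver 5 (olive), with filled points for an adjusted p under 0.05. *Hsph1* goes from -1.13 to -1.60 and *Hspa1a* from -1.37 to -2.03 when that liver is left out, whereas *Hspa8*, *Hsp90ab1* and *Hspd1* stay near 0. For *Hsph1* and *Hspa1a* that liver was the highest of its group, so leaving it out could only widen the fall.

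Scaling changed the calls of several genes, abundant ones and *Dnajb1* among them, but not that of *Hsph1*. It also turned the sign of *Hsp90aa1* and *Hspa1b*. With scaling by library size alone, the median over all genes tested moved to a log2 fold change of 0.56, and 52.1% of all genes were called higher and 8.97% lower, so that 85.3% of the calls were higher against 52.6% with TMM. On that scale *Hspa8* (0.56, adjusted p = 0.00442), *Hsp90ab1* (0.63, 0.00328), *Hspd1* (0.55, 0.0168) and *Hspe1* (1.05, 0.000379) were higher and *Hsph1* was lower (-0.71, 0.0179), which makes 4 and 1 of 10. Relative to the median of all genes on that scale, *Hspa8* was at -0.0041, *Hsp90ab1* at 0.07, *Hspd1* at -0.01, *Hspe1* at 0.49 and *Hsph1* at -1.27. *Dnajb1* was then at -0.17 (adjusted p = 0.452), which ended its call, and *Hsp90aa1* and *Hspa1b* turned positive, at 0.17 and 0.31. Upper-quartile scaling ended the call of *Dnajb1* too (-0.57, adjusted p = 0.0658). With quantile normalization and limma, *Hspa8*, *Hsp90ab1* and *Hspe1* were called higher and *Hspa1a*, *Hsph1* and *Dnajb1* lower, against 26.3% and 22.8% of all genes. The inclusion of *Hspa1a* rested there too on the group where it was high.

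Ratios between genes counted in the same liver need no scaling between libraries. The ratio of *Hspd1* to *Hspe1* counts was 3.18, 3.64, 3.93, 3.93 and 3.01 in wild-type livers 1 to 5 and 1.97, 3.75, 3.11, 2.18 and 1.96 in Ndrg3 LKO livers 1 to 5. It was below every wild-type ratio in Ndrg3 LKO livers 1, 4 and 5, the same livers in which *Hspe1* was high. The geometric means were 3.52 and 2.502, a log2 difference of -0.49 (exact permutation p = 0.0635, adjusted over the 3 ratios 0.0952), and per kilobase of exon 1.96 and 1.40. Ndrg3 LKO liver 2 had the highest ratio of its group, within the wild-type range, so leaving it out could only widen the difference. The difference was then -0.64 (adjusted p = 0.0476 by the same exact test), which adds no support. Without liver 5 the difference was -0.40 (exact permutation p = 0.111, also 0.111 adjusted). Leaving out each liver in turn gave -0.64 to -0.40.

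The ratio of *Hsp90aa1* to *Hsp90ab1* ran from 0.157 to 0.259 in wild-type livers and from 0.117 to 0.176 in Ndrg3 LKO livers, 2 of which were below every wild-type liver. The log2 difference was -0.41 (exact permutation p = 0.0556, adjusted 0.0952). Leaving out wild-type liver 1, the lowest of its group, could only widen it, to -0.50 (adjusted 0.0476), which adds no support. Without Ndrg3 LKO liver 5 it was -0.47 (exact permutation p = 0.0556, adjusted 0.0833), and over all fits with 1 liver left out it ran from -0.50 to -0.32. Liver 5 had the highest ratio of the Ndrg3 LKO group, so leaving it out adds no support either. The ratio of *Hspa1a* plus *Hspa1b* to *Hspa8*, inducible to constitutive HSP70, ran from 0.00619 to 0.00854 in wild-type livers and from 0.00321 to 0.00979 in Ndrg3 LKO livers. Ndrg3 LKO livers 1 to 3 were below every wild-type liver, liver 4 was among them and liver 5 above them. The log2 difference was -0.47 (exact permutation p = 0.190, also 0.190 adjusted). Without liver 5 it was -0.70 (exact permutation p = 0.0476, adjusted 0.0833, n = 5 against 4). Liver 5 had the highest ratio of its group, so leaving it out could only widen the difference, which adds no support.

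**Figure D4:**
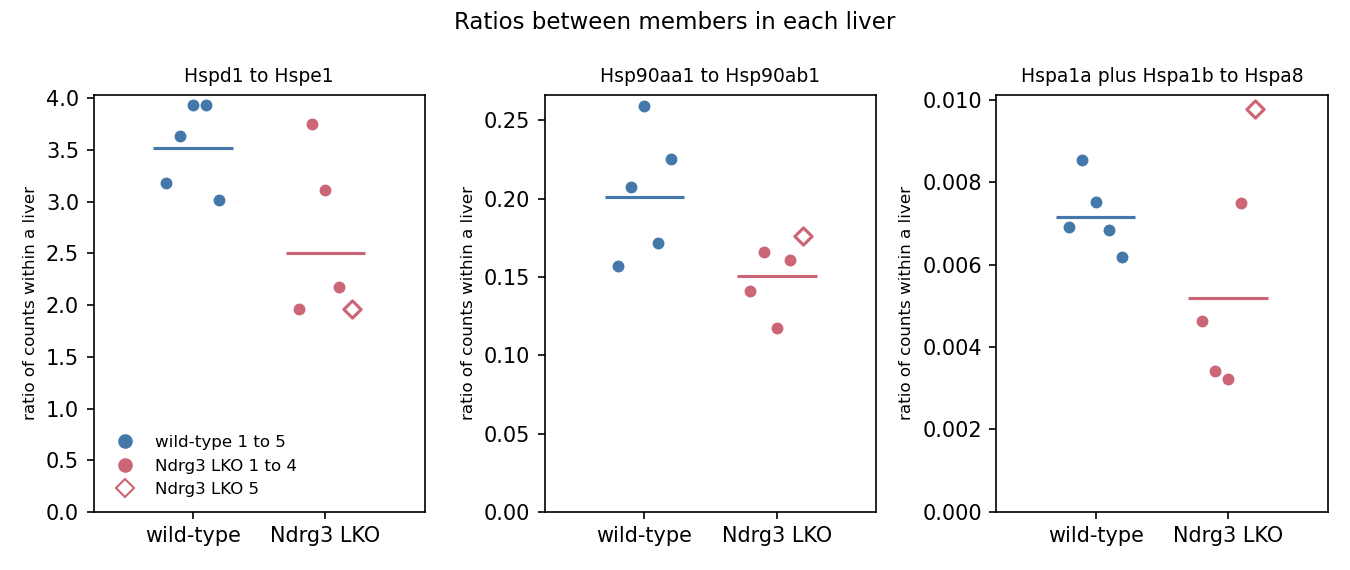
Ratio of counts within each liver for *Hspd1* to *Hspe1*, *Hsp90aa1* to *Hsp90ab1* and *Hspa1a* plus *Hspa1b* to *Hspa8*, with horizontal lines at the geometric mean of each group and Ndrg3 LKO liver 5 as an open diamond. The groups overlap in all 3 panels, and the geometric means are lower in Ndrg3 LKO livers, at 2.502 against 3.52 in the first panel.

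The likeness of 2 genes over the 10 livers was measured as the root-mean-square difference of their log2(TMM-normalized CPM + 1) values, each centred on its wild-type mean. The member nearest to *Hspa1b*, *Hsph1* and *Hspb1* was *Dnajb1* in each case (0.345, 0.471 and 0.424). *Hspa1a* and *Dnajb1* were each other's nearest member at 0.2002, a distance in which the added 1 shrinks the changes of *Hspa1a*. *Hspa8* and *Hspd1* were each other's nearest at 0.179, *Hsp90ab1* and *Hsp90aa1* were nearest to *Hspd1* (0.185 and 0.292), and *Hspe1* to *Hsp90ab1* (0.403). Nearest to *Hspa1a* among all other tested genes were *Tmem134* (0.159), *Rbm17* (0.163) and *Zmat2* (0.169). These distances describe the same 10 libraries and carry no test.

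Other genes of the chaperone system are given by list, and each count is to be read against the 25.6% of all genes called higher and the 23% called lower, or 28.4% and 27.2% without liver 5. Of the 4 genes listed as heat shock factors or their regulators, 2 were higher and 2 did not pass, with the same counts without liver 5. *Hsf1*, the master factor, which is regulated mainly as a protein, stood at 14.7 ± 2.26 in wild-type and 16.5 ± 1.41 in Ndrg3 LKO livers (SD, n = 5 each), with a log2 fold change of 0.17 ± 0.13 (SE, adjusted p = 0.323). *Hsf2* was higher, at 34.4 ± 7.87 against 19.7 ± 0.853 (0.81 ± 0.16, adjusted p = 0.00192), and so was *Hsf4*, at 13.2 ± 1.61 against 7.17 ± 1.76 (0.87 ± 0.18, adjusted p = 0.00194). In both, every Ndrg3 LKO liver was above every wild-type liver, and *Hsf2* was nearest to the wild-type range in liver 5, at 21.1. *Hsbp1*, whose product binds HSF1, had a log2 fold change of 0.33 ± 0.14 (adjusted p = 0.0655), and passed without Ndrg3 LKO liver 2 (0.39, adjusted p = 0.0354) or liver 3 (0.39, adjusted p = 0.0442). Library-size scaling raised all 4 to an adjusted p under 0.05.

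Among other HSP70 proteins and HSP70 cofactors, 5 of 14 genes tested were higher and 5 lower (5 and 6 without liver 5), of which 2 of the lower had a positive value under library-size scaling. *Stub1*, the ubiquitin ligase CHIP that marks HSP70 and HSP90 clients, showed the largest rise (15.9 ± 2.38 to 32.01 ± 5.86, log2 fold change 1.01, adjusted p = 0.000393), followed by *Bag6* (0.84, 0.00266). *Bag5*, an exchange factor of HSP70, showed the largest fall (22.7 ± 3.89 to 10.03 ± 4.37, -1.18, 0.00313), followed by *Hspa13* (-0.99, 9.81e-05). *Hspa4*, an HSP110 relative of *Hsph1* and the most counted gene of the list, rose from 135.4 ± 19.5 to 196.9 ± 33.5 (0.54, 0.0141). Under library-size scaling *Hspa4* was at 1.10. *Hspa4l*, the other HSP110 gene of the list and named after its values were seen, was lower like *Hsph1* (16.1 ± 3.52 to 10.7 ± 0.682, -0.59 ± 0.16, 0.00954), a call that ended under library-size scaling (-0.06, 0.792). The list's median was -0.04.

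Of 15 other J-domain genes tested, 2 were higher and 5 lower (2 and 6 without liver 5), and 1 of the lower had a positive value under library-size scaling. *Dnaja1*, the most counted, was at 311.1 ± 78.4 in wild-type and 186.2 ± 68.0 in Ndrg3 LKO livers (SD, n = 5 each), with Ndrg3 LKO liver 5 at 305.1 as the highest of its group. Its log2 fold change was -0.74 (adjusted p = 0.0226), and the adjusted p was 0.0566, 0.0522 and 0.0569 without Ndrg3 LKO liver 1, Ndrg3 LKO liver 3 and wild-type liver 3. *Dnajc2* (-1.05, 0.00570) and *Dnajb6* (-0.78, 0.000449) showed the largest falls, and the calls of *Dnaja1* and *Dnajb6* ended under library-size scaling (-0.27, adjusted p = 0.216, and -0.27, 0.0665). *Dnaja4* (0.93, 0.00425) and *Dnajc8* (0.51, 0.00919) showed the largest rises. *Dnaja1*, *Dnajc2* and *Dnajb6*, like *Dnajb1*, had their highest Ndrg3 LKO value in liver 5. The median of the list was -0.24, close to that of the 10 heat shock proteins.

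HSP90 co-chaperones mostly did not pass, with 1 of 14 higher and 2 lower (0 and 3 without liver 5). *Fkbp5*, a co-chaperone of steroid receptors and a well known target of glucocorticoids, stood at 332.8 ± 80.6 in wild-type and 61.4 ± 66.2 in Ndrg3 LKO livers, of which liver 5 had 179.7 (log2 fold change -2.44 ± 0.52, adjusted p = 0.00258, and -3.40, 2.04e-07, without liver 5). Here too liver 5 was the highest of its group, so the fit without it adds no support. *Ppid*, cyclophilin 40, fell too (-0.78, 0.0183, or -0.30, 0.196, under library-size scaling), and *Stip1*, the HOP adaptor between HSP70 and HSP90, rose from 80.8 ± 3.81 to 100.2 ± 11.2 (0.31, 0.0358), a call that was lost when any liver other than wild-type 3 or Ndrg3 LKO 2 and 3 was left out (adjusted p from 0.0563 to 0.0894). Small heat shock proteins went the other way from *Hspb1* in the 2 of 3 tested genes that passed, with the same counts without liver 5, as *Hspb6* rose from 7.35 ± 2.36 to 15.1 ± 5.75 (1.04, 0.0140) and *Hspb8* from 345.7 ± 52.5 to 540.8 ± 92.3 (0.65, 0.00758), while *Cryab* was at -0.29 (0.511), or at 0.23 under library-size scaling. The differences of these genes from *Hspb1* were not tested.

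The cytosolic chaperonin CCT and its loading complex prefoldin, which serve actin and tubulin, had 5 of 14 genes higher and the other 9 not past the threshold (4 higher and 1 lower without liver 5). *Pfdn4* (4.63 ± 1.48 to 10.7 ± 2.59, log2 fold change 1.21, adjusted p = 0.00137) and *Cct5* (226.6 ± 41.5 to 349.5 ± 47.7, 0.63, 0.00824) showed the largest rises. Among other mitochondrial chaperones and proteases, 4 of 15 were higher and 5 lower, as many as without liver 5, 2 of the latter with a positive value under library-size scaling. *Hspa9*, mortalin, the HSP70 that pulls proteins into the matrix ahead of the HSPD1 chamber, rose from 791 ± 118 to 1457 ± 184 (0.88, 0.00115), with no overlap between the groups. *Afg3l2*, a protease of the inner membrane, rose too (0.64, 0.00680), whereas *Clpx* (-1.05, 0.00260) and *Dnaja3*, the mitochondrial J-domain partner of *Hspa9* (-0.73, 0.00106), fell. Both of these calls ended under library-size scaling (-0.48, adjusted p = 0.106, and -0.21, 0.240).

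For comparison, of 14 chaperones of the endoplasmic reticulum 5 were lower, with or without liver 5, and the other 9 did not pass, with a median of -0.49 over all livers. *Dnajb9* (-1.28, adjusted p = 0.000110) and *Creld2* showed the largest falls, the latter with a call that ended without Ndrg3 LKO liver 1, 2 or 4 or wild-type liver 2 or 5 (-1.34, 0.0358, with adjusted p from 0.0603 to 0.0898 in these 5 fits) and under library-size scaling (-0.79, 0.157), and *Hsp90b1*, the most counted, was at -0.34 (0.396). No test of the difference between the lists was made. Without Ndrg3 LKO liver 5, the median was -0.59 for the endoplasmic reticulum list and -0.51 for the 10 heat shock proteins, which had moved further from -0.23.

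**Figure D5:**
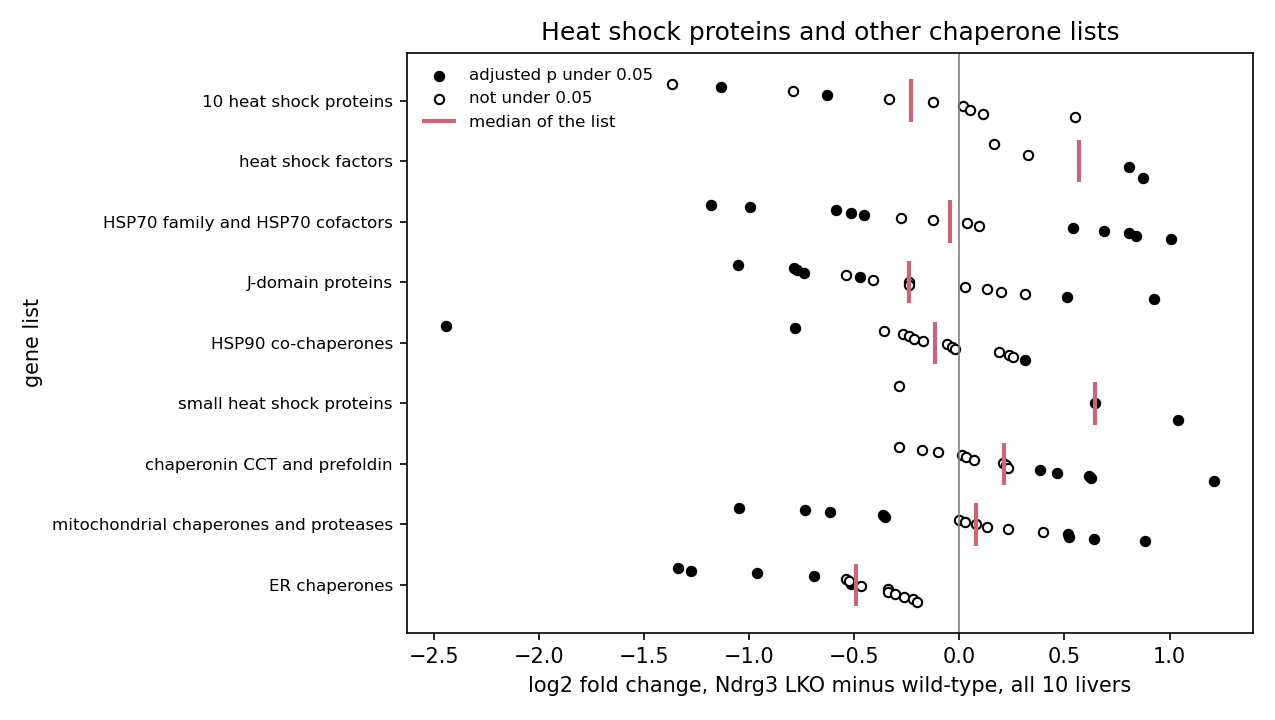
Log2 fold change of Ndrg3 LKO over wild-type livers (all 10 livers) for every gene tested in 9 lists, with filled points for an adjusted p under 0.05 and a bar at the median of each list. The 10 heat shock proteins have a median of -0.23 with 2 filled points, both below 0, while the heat shock factors have a median of 0.57.

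Genes that respond to temperature, handling or time of day, as heat shock genes can, are given beside these results. Counts in these lists too are to be read against 25.6% of all genes called higher and 23% called lower, or 28.4% and 27.2% without liver 5. Of the cold-inducible RNA-binding genes, *Cirbp* was lower (15.7 ± 4.18 to 8.25 ± 2.06, log2 fold change -0.93, adjusted p = 0.00439, or -0.43, 0.110, under library-size scaling) and *Rbm3* higher (30.3 ± 7.88 to 65.8 ± 23.5, 1.12, 0.00371). Of 9 immediate-early genes tested, 4 were higher and 1 lower (5 and 2 without liver 5), led by *Klf6* (2.85, 5.70e-05), and their summed level was 202.4 to 267.1 in wild-type livers, 214.6 to 302.5 in Ndrg3 LKO livers 1 to 4 and 347.4, the highest, in liver 5. Of 11 clock genes tested, 3 were higher and 2 lower (3 and 3 without liver 5), led by *Nr1d1* (3.28, 0.000302), which stood at 5.91 to 19.4 in wild-type livers, at 21.5 in Ndrg3 LKO liver 5 and at up to 187.9 in the other Ndrg3 LKO livers. The labels give no time of collection, and the part of any of these in the levels of the heat shock genes was not tested.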

How the data were processed

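RNA of 10 mouse livers (5 wild-type, 5 Ndrg3 LKO) was sequenced with 1 library each. From stranded mRNA libraries aligned to mm9 by STAR, the authors deposited the counts per gene given by its count module; the submitters' notes also list bcl2fastq, Trim Galore 0.6.4, STAR 2.7.3a and Cufflinks 2.2.1. The annotation and the strand setting are not given in the sources used here. The deposited files are named for CPM but hold whole numbers with unequal totals, so they were used as raw counts.

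Counts were analysed in R 4.3.3 with edgeR 4.0.16 (TMM, quasi-likelihood test, 2-sided, Benjamini-Hochberg adjustment over all genes tested, threshold 0.05). A gene was tested where 5 or more livers reached 1 CPM, or 4 or more where a liver was left out. Alternatives were DESeq2 1.42.0, limma 3.58.1 on log2(CPM + pseudocount) with pseudocounts of 0.1, 1 and 5, limma after quantile normalization, median-of-ratios, upper-quartile and library-size scaling, no filter, a mean CPM of at least 5, the replicate number as a block, *Hspa1a* and *Hspa1b* summed, and each liver left out in turn. Log2 ratios, and for single genes log2(TMM-normalized CPM + 1), were compared by their group means. This was done with 2-sided exact permutation tests (252 regroupings, smallest possible p 0.00794, and 126 with 9 livers). The fit was checked on artificial counts with known changes. Genes were located in the GENCODE annotation of mm9, and exon lengths are merged exons of a gene, or, as an alternative added later, 1 annotated transcript.

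P-values set the difference between the groups against the variation between these livers. The labels say nothing of litters or cages. Counting floors cover counting error alone, as reads lacking molecular identifiers may be copies of 1 molecule. Of the 24052 symbols, 25 look like dates and 6306 had no read. In the lists, *Adgre1* and *Pfdn6* are in the files under older symbols. The 10 genes and all gene lists were chosen with earlier results of these data known, so counts over them are descriptions. Beside the 10 genes and *Ndrg3*, the text names every tested gene of lists of up to 6 genes, the 2 largest rises, the 2 largest falls and the most counted gene of longer chaperone lists, the largest change of each marker, clock and immediate-early list, and the 3 genes nearest to *Hspa1a*.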

Additional observations from a re-analysis of the deposited data

Results flagged for a closer look

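In a group of 5 livers, a sample was singled out when its gap to the nearest other liver exceeded 0.71 of the group's whole range. Of 28 groups examined, 1 met this: *Hsph1* in Ndrg3 LKO liver 5, the highest of its group at 66.5 TMM-normalized CPM, with a gap of 0.904 of the range. Chance alone singles out about 1 group in 20. Ndrg3 LKO livers 1 to 4 held 21.3 to 25.7.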

How the results depend on the processing

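Over 22 alternatives, *Ndrg3* was lower in each (leave-one-out log2 fold changes -1.26 to -1.15), and the count of all genes called stayed within 1.5 times of 5443 (4703 to 6360 with 1 liver left out). Of the 10 genes, 4 were called higher with library-size scaling, against 52.1% of all genes, and 3 after quantile normalization with limma, against 26.3%. DESeq2 called 1 higher, against 26.9%. So did upper-quartile scaling (3213 of all 11208 genes) and a mean CPM of at least 5 (2262 of 8729). With 1 liver left out, 0 to 1 were called higher, against 2486 to 3252 of all genes. Called lower was 1 with library-size scaling, against 8.97% of all genes. The same count came with upper-quartile scaling (2305 of 11208), a mean CPM of at least 5 (1992 of 8729) and the replicate block (2197 of 11208). With 1 liver left out, 1 to 4 were called lower, against 2217 to 3108 of all genes. The 4 came from the fit without Ndrg3 LKO liver 5, in which *Hspa1a* was tested through wild-type livers alone. With library-size scaling the sign turned for *Hspa1a* and *Hspa1b* summed (0.20, leave-one-out -0.67 to -0.048), *Hsp90aa1* (0.17), *Hspa1b* (0.31), *Hsp90b1* (0.17, and 0.024 after quantile normalization) and *Cryab* (0.23). Without the filter *Hspd1* was at -0.023. Leaving out 1 liver gave -0.43 to 0.16 for *Cryab*, -0.55 to 0.056 for *Hspa1b*, -0.058 to 0.11 for *Hspa8* and -0.082 to 0.11 for *Hspd1*, none of which passed. The ratio of *Hspd1* to *Hspe1* ran from -0.64 to -0.40 and that of *Hsp90aa1* to *Hsp90ab1* from -0.50 to -0.32 (log2 differences). With library-size scaling the cause is the scaling itself, which moved the median of all genes from 0.03 to 0.56; for the other settings the cause was not tested.

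Same-numbered livers did not deviate together (correlations -0.36, -0.27, -0.31, -0.18 and 0.04), so the numbers do not pair them. With the replicate block 4412 genes were called, *Hsph1* was called and *Dnajb1* was not (adjusted p = 0.0615). Of 217 single alternatives of the 10 genes, 173 kept direction and side of the threshold, 13 lost the call, 20 gained one and 11 turned sign, and of 835 for the 38 other named genes 795, 29, 7 and 4. At 3 to 51 reads per library, depth limits *Hspa1a*.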
